A study of Mus musculus with 30 samples.

Results

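The comparison described here is that of Xbp1 knockout with wild-type telencephalon cultures after 24 h of brain-derived neurotrophic factor (BDNF). It rests on 10 of the 30 arrays of the series, chosen by their titles: 5 of knockout dishes and 5 of wild-type dishes. The knockout cultures came from a pool of 6 Xbp1 -/- embryos and the wild-type cultures from a pool of 4 Xbp1 +/+ embryos, the offspring of heterozygous parents, dissected at embryonic day 12.5. Each pool was spread over 15 dishes in serum-free Neurobasal medium with B27, and each dish gave 1 array. On day 3 in vitro the treated dishes received BDNF at 100 ng/ml. The 24 h dishes were lysed on day 4, together with dishes that received no BDNF, and the dishes of 48 h on day 5. Which part of Xbp1 the allele lacks is not stated in the labels. Since each genotype is 1 pool, the p-values below measure the spread between dishes of a pool, and genotype and pool cannot be told apart.

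XBP1 is a leucine zipper transcription factor of the unfolded protein response. When unfolded proteins accumulate in the endoplasmic reticulum (ER), the membrane enzyme IRE1 cuts a short intron out of Xbp1 mRNA, and the spliced mRNA encodes an activator of genes for protein folding, translocation, degradation and vesicle traffic. BDNF binds the receptor TrkB, which signals through ERK and other kinases and, in the developing forebrain, promotes survival and the expression of interneuron neuropeptides. The telencephalon forms the cortex, where glutamatergic projection neurons arise, and the ganglionic eminences, where GABAergic neurons arise.

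Transcripts were measured on Affymetrix Mouse Genome 430A arrays. The values below are log2 signals relative to the median of the same array, so that a value of 0 equals the array median. A difference is the mean of the knockout dishes minus the mean of the wild-type dishes on this log2 scale, given with its standard error (SE). "Rose" and "fell" are used where the adjusted p-value of the limma fit (Benjamini-Hochberg over 7195 autosomal genes) was below 0.05. In bulk cultures fewer cells of a type and less RNA per cell cannot be told apart. The median signal before scaling was 108 ± 11 intensity units in knockout and 96.3 ± 11.8 in wild-type dishes (SD, n = 5 each; exact permutation test, two-sided, p = 0.167). The Gapdh 3'/5' ratio, a measure of RNA integrity, was 2.80 ± 0.19 in knockout and 2.83 ± 0.15 in wild-type dishes (SD, n = 5 each; exact permutation test, two-sided, p = 0.746). The smallest p this design allows is 0.00794.

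The targeted gene, on chromosome 11, is read by 4 probe sets. The brightest stood at 4.53, 4.63, 4.70, 4.63 and 4.63 in knockout dishes and at 4.68, 4.47, 4.55, 4.50 and 4.55 in wild-type dishes. The ranges overlapped, and the difference of 0.07 ± 0.06 did not pass the test (limma, adjusted p = 0.37). A second Xbp1 probe set differed by -0.01 ± 0.08 and a dim one by -0.36 ± 0.20, and neither passed. The remaining Xbp1 probe set lay between 2.63 and 2.92 in knockout dishes and between 1.23 and 1.91 in wild-type dishes, a rise of 1.05 ± 0.10 (limma over all probe sets, adjusted p = 1.90e-08). The arrays thus held no probe set that fell with the knockout label. A probe set outside a deleted part does not check the genotype.

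Across all tested genes 1874 of 7195 passed the threshold, which is 26% of them. Of these, 602 rose (8.37%) and 1272 fell (17.7%). The genes that differed by at least 1.5-fold were fewer, 420 genes or 5.84%, and 288 of those rose. The median difference over all genes was -0.09, and the split between rises and falls moved with the scaling. Rises made up 32.1% of the calls with division by the array median, 51.3% with quantile normalization, 47.3% with division by the 75th percentile and 83.5% with the signals as deposited. Small differences near the overall median therefore depend on the scaling. The counts of gene groups below are to be read against these background shares.

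The genes of cortical projection neurons were low in knockout dishes. Of 19 tested members of this list, 15 fell, 2 rose and 2 did not pass, and their median difference was -0.84. Neurod6, a transcription factor of postmitotic pyramidal neurons, stood at 1.51, 1.40, 1.68, 1.23 and 1.55 in knockout dishes and at 3.13, 3.12, 2.63, 2.72 and 2.78 in wild-type dishes. Every knockout dish was below every wild-type dish, and the fall was -1.40 ± 0.11 (limma, adjusted p = 2.13e-12). Fezf2, which specifies subcerebral projection neurons, lay between 0.33 and 0.98 in knockout dishes and between 1.95 and 2.31 in wild-type dishes, a difference of -1.40 ± 0.12. Tbr1, a factor of early-born deep-layer neurons, ranged from -0.53 to 0.53 in knockout dishes and from 1.23 to 1.55 in wild-type dishes. Its difference was -1.30 ± 0.17.

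The falls extended over the stages of the cortical glutamatergic lineage. Neurog2, a proneural factor of dorsal progenitors, differed by -0.84, and Eomes, a marker of intermediate progenitors, by -1.04. The neuronal differentiation factors Neurod1 and Neurod2 differed by -1.22 and -0.93. Lhx2, which specifies cortical identity, differed by -1.02. Bcl11b, a factor of deep-layer neurons, differed by -0.77, and Sox5, another, stood at 0.22 ± 0.17 in knockout and 1.21 ± 0.06 in wild-type dishes (SD, n = 5 each). The members that rose were Lhx9, a LIM homeobox factor of the thalamus and other regions, with 1.37 ± 0.09, and Slc17a6, which encodes the vesicular glutamate transporter VGLUT2, with 0.42 ± 0.10. A second Slc17a6 probe set had a difference of 0.18 ± 0.10 and did not pass. Lhx9 lay between 1.70 and 1.82 in knockout dishes and between 0.16 and 0.54 in wild-type dishes, with no overlap. Eomes, Lhx2, Sox5, Nfib, Neurod2, Neurog2 and Bcl11b are named here after their values were seen.

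Transcription factors of the GABAergic lineage were low as well, with 7 of 12 tested members falling, 1 rising and a median difference of -0.58. Lhx6, which is required for interneurons of the medial ganglionic eminence, stood at 1.44, 1.47, 1.57, 1.63 and 1.49 in knockout dishes and at 2.43, 2.34, 2.53, 2.57 and 2.62 in wild-type dishes. The groups did not overlap, and Lhx6 fell by 0.98 ± 0.08 (limma, adjusted p = 1.04e-11). The distal-less factors Dlx5 and Dlx2, which drive GABAergic differentiation, differed by -1.03 ± 0.17 and -0.95 ± 0.18, and Meis2, a factor of the lateral ganglionic eminence and striatum, by -0.87 ± 0.07. Dlx1as, the antisense transcript at the Dlx1 locus, lay between 1.51 and 2.04 in knockout dishes and between 2.62 and 3.99 in wild-type dishes. The probe sets of Dlx1 and of this antisense partner are annotated under separate symbols. Six3, a factor of the ventral forebrain, rose by 0.31 ± 0.11, a call that was lost without any of 6 arrays (values between 0.27 and 0.31 without knockout replicate 1, 3 or 4 or wild-type replicate 1, 2 or 3).

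**Figure D1:**
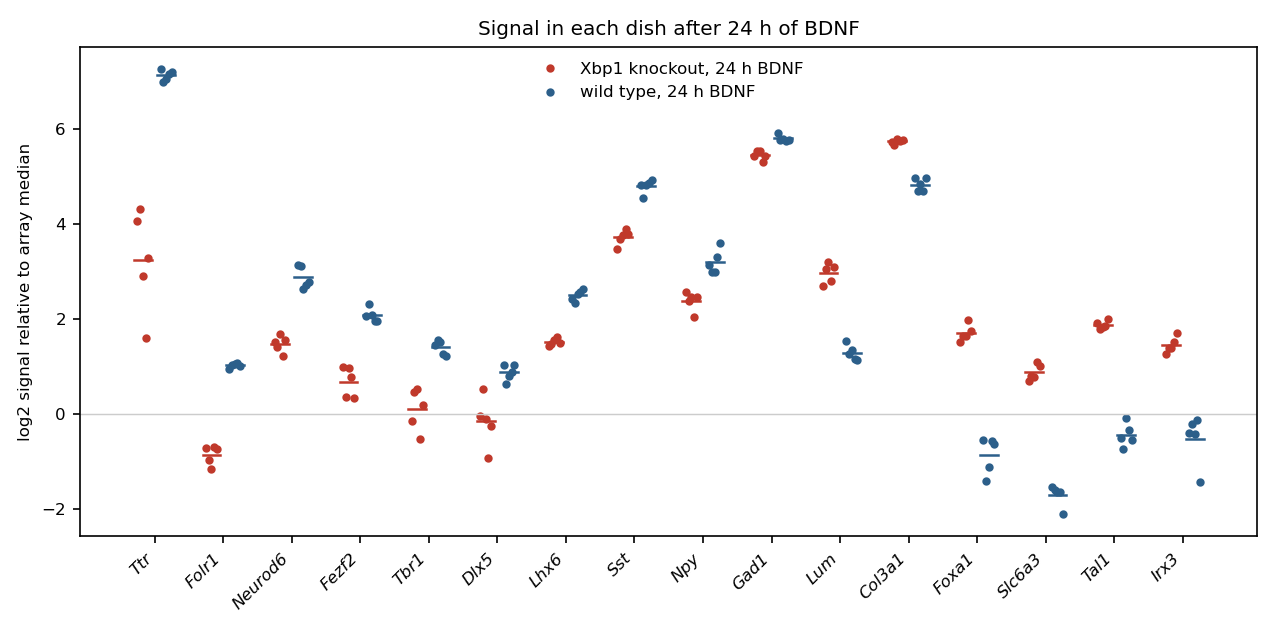
Log2 signal relative to the array median (vertical axis) of 16 named genes, with 1 point for each of the 5 Xbp1 knockout dishes (red, left) and the 5 wild-type dishes (blue, right) after 24 h of BDNF; the short lines are group means. The groups do not overlap for any of the 16 genes, against 17.6% of all tested genes. Some of the 16 were named by a rule that asked for no overlap. The knockout dishes are below the wild-type dishes from Ttr to Gad1 and above them from Lum to Irx3.

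Some peptides and calcium-binding proteins of interneurons were lower in knockout dishes. Of 9 tested members, 4 fell, 5 did not pass and 0 rose, and the median difference was -0.24. Another 6 of the 15 members on the array were too dim to be tested. Of these, Vip averaged 0.04 ± 0.12 in knockout and -0.73 ± 0.16 in wild-type dishes (SD, n = 5 each). Nos1 also had a higher mean in knockout dishes, and Cort, Pdyn, Pvalb and Tac2 had lower ones. Without the filter on mean signal 0 of the 15 members rose and 4 fell, with a median of -0.24. Sst, the peptide somatostatin, stood at 3.48, 3.68, 3.76, 3.89 and 3.80 in knockout dishes and at 4.82, 4.54, 4.82, 4.87 and 4.92 in wild-type dishes. All knockout dishes lay below all wild-type dishes, with a fall of 1.07 ± 0.08 (limma, adjusted p = 1.35e-12). Npy, neuropeptide Y and a transcript that BDNF is known to induce in cortical neurons, lay between 2.05 and 2.56 in knockout dishes and between 2.99 and 3.61 in wild-type dishes. Its difference was -0.82 ± 0.10.

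Calb1, the calcium buffer calbindin, fell by 0.95 ± 0.09, and Reln, the secreted protein that guides cortical layering, fell by 0.62 ± 0.08. The calretinin gene Calb2 had a difference of -0.24, the prepronociceptin gene Pnoc one of -0.12, and Tac1 and Cck one of -0.09 each. Penk, which encodes enkephalins, had a difference of 0.22. None of these 5 passed the test. Npy and Sst also fell without BDNF, by 0.61 and 1.01, and at 48 h, by 1.16 and 1.29. The difference between times did not pass the test for either gene.

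Genes of GABA synthesis had smaller differences. Gad1, the main GABA-synthesizing enzyme, stood at 5.44, 5.55, 5.55, 5.31 and 5.43 in knockout dishes and at 5.93, 5.77, 5.79, 5.76 and 5.76 in wild-type dishes. The ranges did not overlap, and Gad1 fell by 0.35 ± 0.07 (limma, adjusted p = 5.69e-04). A second, dimmer Gad1 probe set had a difference of -0.25 ± 0.14 and did not pass. Gad2, the other synthesizing enzyme, differed by -0.09 ± 0.15, the vesicular transporter gene Slc32a1 by -0.19 ± 0.11 and the transaminase gene Abat by -0.23 ± 0.12, and none of them passed. With the signals as deposited Gad1 had a difference of -0.18 and did not pass either.

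Neural progenitor genes differed in both directions. Of 8 tested members, 5 fell and 2 rose, with a median difference of -0.58. Sox2, a factor of neural stem cells, fell by 0.59 ± 0.08 without overlap, with knockout dishes between 3.16 and 3.45 and wild-type dishes between 3.75 and 4.12. Hes5, a Notch target of radial glia, fell by 0.67 ± 0.19, and Pax6, a factor of dorsal progenitors, fell by 0.59 ± 0.15. Hes1, another Notch target, rose by 0.58 ± 0.13. General neuronal genes had 1 fall among 8 tested members, Snap25 with -0.24 ± 0.08, and a median difference of -0.07. The call of Snap25 was lost without any of 6 arrays (values between -0.24 and -0.19 without knockout replicate 1, 2 or 4 or wild-type replicate 1, 2 or 3). With quantile normalization 2 general neuronal genes rose and 0 fell, and the median was 0.02. The summed signal of the pan-neuronal markers, in multiples of the array median, was 200 to 236 in knockout dishes and 220 to 240 in wild-type dishes. That of the progenitor markers was 113 to 129 in knockout dishes and 130 to 161 in wild-type dishes. The parts of neuronal and progenitor cell numbers in the differences of the lineage genes were not tested.

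Some neurotransmitter receptor and synaptic genes fell. Gria1 and Gria2, subunits of AMPA receptors, fell by 0.90 ± 0.09 and 0.31 ± 0.08 among 4 tested ionotropic glutamate receptor genes. Glrb and Gabrb1, subunits of glycine and GABA-A receptors, fell by 0.61 ± 0.10 and 0.49 ± 0.11 among 5 tested. Of 18 synaptic vesicle and exocytosis genes 5 fell and 1 rose, 33.3% of them against 26% of all genes. The complexins Cplx2 and Cplx1, which clamp and trigger vesicle fusion, fell by 0.77 ± 0.11 and 0.60 ± 0.07. Rab3c, a vesicle GTPase, rose by 0.33 ± 0.11, and its call was lost without knockout replicate 2 or 5, with values of 0.28 and 0.29. Of 16 secretory granule and neuropeptide genes 3 rose and 3 fell, 37.5% of them. Chgb, the granule protein chromogranin B, rose by 0.44 ± 0.07, Adcyap1, which encodes the peptide PACAP, rose by 0.61 ± 0.13, and Scg3, secretogranin III, fell by 0.39 ± 0.07.

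The largest difference of the comparison belonged to a choroid plexus gene. Ttr, transthyretin, which the choroid plexus secretes into the cerebrospinal fluid, stood at 4.06, 4.31, 2.91, 1.59 and 3.29 in knockout dishes and at 7.26, 7.0, 7.06, 7.17 and 7.19 in wild-type dishes. No knockout dish reached the wild-type range, although the knockout dishes spread widely. Ttr fell by 3.90 ± 0.46 (limma, adjusted p = 4.14e-08), and its other 2 probe sets differed by -4.40 ± 0.49 and -4.28 ± 0.40. Folr1, the folate receptor of the choroid plexus epithelium, lay between -1.15 and -0.69 in knockout dishes and between 0.95 and 1.07 in wild-type dishes, a fall of 1.88 ± 0.15. Krt8, a keratin of simple epithelia, fell by 2.14 ± 0.24 without overlap.

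Otx2, a factor of the choroid plexus and of the midbrain, went the other way, with knockout dishes between 1.10 and 1.31 and wild-type dishes between -0.04 and 0.36. It rose by 1.04 ± 0.12. The summed signal of the 4 choroid plexus markers was 6.26 to 22.9 in knockout dishes and 131 to 156 in wild-type dishes. Ttr carried this sum in wild-type dishes, where its mean was 7.14, against 1.02 for Folr1 and 0.16 for Otx2. The sum is therefore mostly a reading of Ttr. The fourth marker, Kl, was below the array median on all 10 arrays. Slc15a2, a peptide transporter of choroid plexus and astrocytes, fell by 1.43 ± 0.11. Other large falls were those of C1ql3, a secreted C1q-like protein, with -1.45 ± 0.12, the reductase gene Akr1c13 with -1.38 ± 0.14, Tcim with -1.28 ± 0.14 and Mmd2 with -1.28 ± 0.07. The wild-type dishes of all 4 genes lay above all knockout dishes, as the rule that chose them required.

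Markers of meninges and mesenchyme were higher in knockout dishes. All 5 tested members rose, and their median difference was 0.91. Lum, the collagen-binding proteoglycan lumican, stood at 2.70, 3.05, 3.20, 2.79 and 3.09 in knockout dishes and at 1.54, 1.27, 1.35, 1.16 and 1.14 in wild-type dishes. The groups were well apart, and Lum rose by 1.68 ± 0.15 (limma, adjusted p = 1.81e-10). The fibrillar collagen genes Col3a1 and Col1a2 rose by 0.91 ± 0.07 and 0.90 ± 0.07, and decorin, Dcn, rose by 1.41 ± 0.19. The summed signal of the 6 markers was 151 to 169 in knockout dishes and 79.7 to 88.6 in wild-type dishes. Among the 6, Pdgfra was below the array median on all 10 arrays.

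Many matrix genes also rose. The list of matrix and axon guidance genes had 16 rises, 8 falls and 8 members that did not pass among 32 tested, with a median difference of 0.28. Its largest rises were those of Lama4, a laminin chain, with 1.21 ± 0.11, Col6a1 with 1.21 ± 0.08, Fbln2 with 1.15 ± 0.14 and Col5a1 with 1.02 ± 0.08. Its 4 largest falls were those of the guidance genes Epha5 with -0.65 ± 0.09, Efnb2 with -0.61 ± 0.08, Slit1 with -0.58 ± 0.11 and Sema3a with -0.57 ± 0.08. The matrix gene Postn, periostin, fell too, by 0.45 ± 0.08, and Tnc, tenascin C, had a difference of 0.15 ± 0.08 that did not pass. Postn and Tnc are named after their values were seen. Several of the largest rises of all tested genes also encode matrix proteins. Epyc, the small proteoglycan epiphycan, lay between 1.16 and 1.71 in knockout dishes and between -0.96 and -0.64 in wild-type dishes, a rise of 2.30 ± 0.16. The filter on mean signal favours such a gene, dim in the wild type, where it is high in the knockout. Fmod, fibromodulin, rose by 1.99 ± 0.13, and all 6 of its probe sets rose.

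Fbn2, fibrillin 2, rose by 1.97 ± 0.12, Serpinf1, which encodes the secreted serpin PEDF, by 1.95 ± 0.11, Efemp1, fibulin 3, by 1.85 ± 0.13, and Emp1, an epithelial membrane protein, by 1.91 ± 0.12. Foxd1, a forkhead factor of the kidney stroma and of the embryonic retina and hypothalamus, rose by 2.02 ± 0.15. The 5 knockout dishes lay above the 5 wild-type dishes for each of them, as the rule that chose them required. Pdgfrb, the pericyte and mesenchyme receptor, rose by 1.15 ± 0.13, while the pericyte gene Rgs5 fell by 1.03 ± 0.12. The endothelial markers Pecam1, Cdh5, Kdr and Cldn5 were below the array median on all 10 arrays. What the higher level of the mesenchymal markers contributes to the matrix genes was not tested.

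**Figure D2:**
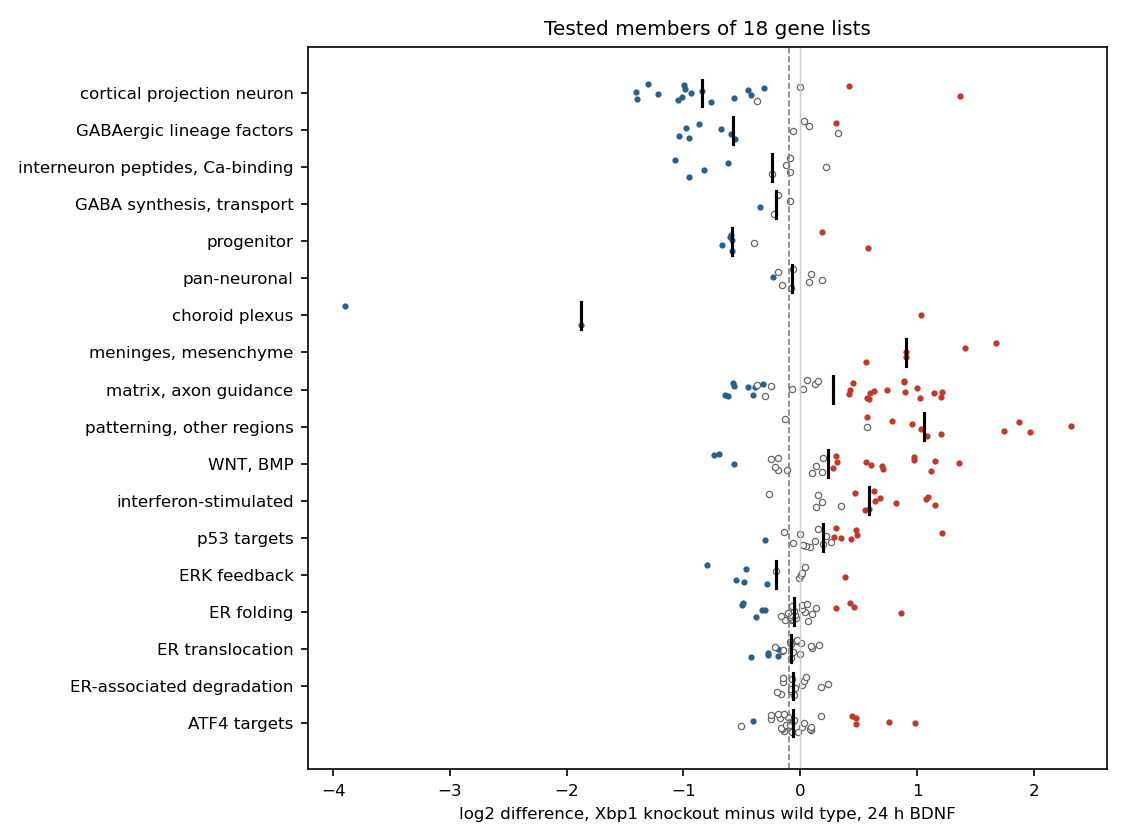
Log2 difference, Xbp1 knockout minus wild type after 24 h of BDNF (horizontal axis), for each tested member of 18 gene lists; filled points passed the limma threshold (red rose, blue fell), open points did not. Black bars are list medians and the dashed line is the median over all genes, -0.09; the medians run from -1.88 for choroid plexus markers to 1.06 for patterning factors.

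Many patterning factors of brain regions behind or below the cortex were higher in the knockout dishes. Of 12 tested members of this list 10 rose and 0 fell, and the median difference was 1.06. Irx3, an Iroquois factor of the diencephalon, midbrain and hindbrain, stood at 1.26, 1.39, 1.39, 1.51 and 1.70 in knockout dishes and at -0.40, -0.21, -0.42, -0.13 and -1.44 in wild-type dishes. The groups did not overlap, and Irx3 rose by 1.97 ± 0.19 (limma, adjusted p = 9.61e-10). Tal1, which selects the GABAergic fate in midbrain and spinal cord and is also a blood factor, lay between 1.78 and 2.00 in knockout dishes and between -0.73 and -0.09 in wild-type dishes. It rose by 2.32 ± 0.11.

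Irx5 rose by 1.75 ± 0.18, Tfap2b, a factor of the neural crest, midbrain and hindbrain, by 1.88 ± 0.13, and Gata2, a partner of Tal1 in midbrain GABAergic neurons, by 1.09. Sim1, a hypothalamic factor, had a difference of 0.57 and did not pass. Of the 42 genes listed, 35 were on the array and 23 of those were too dim to be tested. In 10 of the 12 tested members the wild-type mean lay below the array median, and a filter on mean signal favours such members where they are high in the knockout, which tilts the count and median to rises. Without the filter 17 of the 35 members rose and 0 fell, and the median difference was 0.57, while 6.02% of 11984 genes rose and 10.7% fell. Gata2 and Sim1 are named after their values were seen.

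Slc6a3 and Foxa1 had the largest rises of all tested genes. Their wild-type dishes lay below the array median, where the filter on mean signal favours genes that are high in the knockout. The ranking is therefore tilted to such rises. Slc6a3, the dopamine transporter, stood at 0.69, 0.79, 0.79, 1.10 and 1.02 in knockout dishes and at -1.54, -1.60, -1.65, -1.64 and -2.11 in wild-type dishes. Every knockout dish was above the array median and every wild-type dish below it, with a rise of 2.58 ± 0.19 (limma, adjusted p = 7.80e-13). Foxa1, a forkhead factor of the floor plate and of midbrain dopamine progenitors, lay between 1.52 and 1.98 in knockout dishes and between -1.41 and -0.54 in wild-type dishes, a rise of 2.56 ± 0.22. Detection calls were not used here, so it is not known whether the wild-type signals of these genes were above background.

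Ddc, the decarboxylase of dopamine and serotonin synthesis, rose by 1.19 ± 0.15, and Th, tyrosine hydroxylase, had a difference of 0.21 ± 0.17 that did not pass. Ddc and Th are named after their values were seen. The rises of Slc6a3 and Foxa1 were 2.53 and 2.52 without BDNF and 3.39 and 2.55 at 48 h. The regional makeup of the dissected pools was not measured apart from these transcripts, and its part in the differences of the patterning, projection neuron and GABAergic genes was not tested.

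WNT and BMP pathway genes had 12 rises and 3 falls among 24 tested, with a median difference of 0.24. Without the filter on mean signal there were 12 rises and 3 falls among 40 members, with a median of 0.16. Bmp4, a ligand of the dorsal midline and mesenchyme, rose by 1.12 ± 0.14, the BMP-responsive genes Id3 and Msx2 rose by 1.36 ± 0.12 and 1.16 ± 0.16, and Rspo2, an enhancer of WNT signalling, rose by 0.97 ± 0.10. The ligands Wnt7a and Wnt7b, which cortical progenitors and neurons secrete, fell by 0.74 ± 0.11 and 0.69 ± 0.11. The third fall was that of Id2, another Id gene, by 0.56 ± 0.12, so the Id genes did not share a direction. Among 21 tested imprinted genes 8 rose and 1 fell, 42.9% of them against 26% of all genes. Cdkn1c, a cell cycle inhibitor, rose by 0.93 ± 0.10, Dlk1 by 0.73 ± 0.13 and the growth factor gene Igf2 by 0.56 ± 0.09, while Rasgrf1, a neuronal exchange factor, fell by 0.58 ± 0.11. Dcn is also on this list.

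The ER genes that XBP1 is known to activate showed no common direction. Folding enzymes and chaperones had 4 rises and 5 falls among 27 tested, 33.3% of them against 26% of all genes, and a median difference of -0.05. That median was 0.02 with quantile normalization and 0.11 with the signals as deposited. The list of protein entry into the ER had 0 rises and 5 falls among 19, 26.3% of them, with a median of -0.08. With quantile normalization it had 2 rises and 2 falls. N-glycosylation genes had 1 rise and 1 fall among 18, 11.1% of them. The ER-associated degradation genes had 0 rises and 0 falls among 14, with differences between -0.20 and 0.24. Coat and cargo receptor genes between ER and Golgi had 4 rises and 4 falls among 33, 24.2% of them and near the background share.

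The promoters of several of these genes show the sequences through which the unfolded protein response acts. The ER stress response element (ERSE), searched as ccaat and ccacg with 9 bases between them on both strands of the 250 bases before the start site, binds NF-Y and ATF6 or XBP1. The UPR element (UPRE), searched as tgacgtgg, is bound by spliced XBP1 and ATF6. The promoter windows below show a central chaperone, a folding enzyme and a co-chaperone with an ERSE, and the genes with a UPRE that passed the test. Motifs are in capitals, and windows are 5' to 3' on the gene's strand, from RefSeq on GRCm38.p6.
Hspa5, chr2:34772000-34772068, plus strand: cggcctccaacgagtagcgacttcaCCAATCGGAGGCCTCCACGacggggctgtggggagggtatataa
Pdia6, chr12:17266466-17266534, plus strand: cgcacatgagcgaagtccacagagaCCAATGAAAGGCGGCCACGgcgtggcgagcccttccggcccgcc
Dnajc3, chr14:118937802-118937870, plus strand: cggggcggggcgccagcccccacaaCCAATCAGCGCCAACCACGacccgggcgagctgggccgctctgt
Kdelr3, chr15:79516353-79516407, plus strand: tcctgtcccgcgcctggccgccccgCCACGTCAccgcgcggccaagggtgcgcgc
Sec24d, chr3:123267445-123267495, plus strand: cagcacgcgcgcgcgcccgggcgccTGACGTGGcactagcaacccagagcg
Txndc5, chr13:38528020-38528077, minus strand: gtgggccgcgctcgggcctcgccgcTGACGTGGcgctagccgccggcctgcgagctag
Txndc11, chr16:11134602-11134659, minus strand: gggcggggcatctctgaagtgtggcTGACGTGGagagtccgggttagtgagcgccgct

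Of the tested genes 5882 had a promoter in the table, 91 of them among the 111 tested ER and traffic genes. Of the ER and traffic genes that fell, 10 of 15 had a promoter, against 8 of 9 that rose and 73 of 87 that did not pass. Hyou1 and Sec11c, which fell, were among those without a promoter, so they were not searched for motifs. The ERSE was found in 11 of the 5882 promoters (0.187%), and 9 of these were ER and traffic genes. None of those 9 genes passed the test, which leaves out the genes without a promoter. The differences of the 9 genes ran from -0.16 ± 0.07 for Dnajc3, a co-chaperone, to 0.06 for Calr, calreticulin. Hspa5, the ER chaperone BiP, had -0.05, and Pdia6, a disulfide isomerase, had -0.07. The ERSE-II element, attgg and ccacg with 1 base between them, stood before Herpud1, a gene of ER-associated degradation, which had a difference of 0.18 and did not pass. The UPRE was found in 56 promoters (0.952%), 7 of them of ER and traffic genes. Of these 7, Kdelr3, Txndc5 and Sec24d rose, Txndc11 fell, and Copb1, Ube2j1 and Vcp did not pass. A match in these windows is a description and not a shown binding site. The promoter genes were named by their motif, after their values were seen.

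Kdelr3, a receptor that returns ER proteins from the Golgi, stood at 1.51, 1.42, 1.80, 1.90 and 1.85 in knockout dishes and at 0.64, 0.51, 0.94, 0.77 and 0.71 in wild-type dishes. The groups did not overlap, and Kdelr3 rose by 0.98 ± 0.11 (limma, adjusted p = 2.49e-08). Fkbp7, an ER prolyl isomerase, rose by 0.86 ± 0.10, Pdia5 by 0.46 ± 0.09 and Txndc5 by 0.42 ± 0.10. Sec31a and Sec24d, coat proteins of COPII vesicles, rose by 0.33 ± 0.10 and 0.31 ± 0.09. The summed mesenchymal markers given above were higher in the same dishes, and their part in these rises was not tested.

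Among the falls, Sdf2l1, a component of ER chaperone complexes, lay between -0.30 and 0.11 in knockout dishes and between 0.18 and 0.65 in wild-type dishes. It fell by 0.49 ± 0.14 (limma, adjusted p = 0.0093). Dnajb9, the co-chaperone ERdj4 and a known XBP1 target, stood at 3.01, 2.97, 3.03, 2.68 and 3.07 in knockout dishes and at 3.45, 3.28, 3.32, 3.31 and 3.26 in wild-type dishes. The ranges did not overlap, and it fell by 0.38 ± 0.10. Hyou1, an ER chaperone, fell by 0.33 ± 0.12, a call that was lost without any of 5 arrays (values between -0.33 and -0.21 without knockout replicate 2, 3 or 4 or wild-type replicate 3 or 4). Txndc11 fell by 0.49 ± 0.11, and the signal peptidase subunit gene Sec11c by 0.42 ± 0.07. Preb, the exchange factor that starts COPII coat assembly, fell by 0.40 ± 0.08. Sec63, a translocon partner, fell by 0.28 ± 0.07, but 1 of its other probe sets rose by 0.38 ± 0.10. With the signals as deposited 0 members of the folding list fell and 4 rose.

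**Figure D3:**
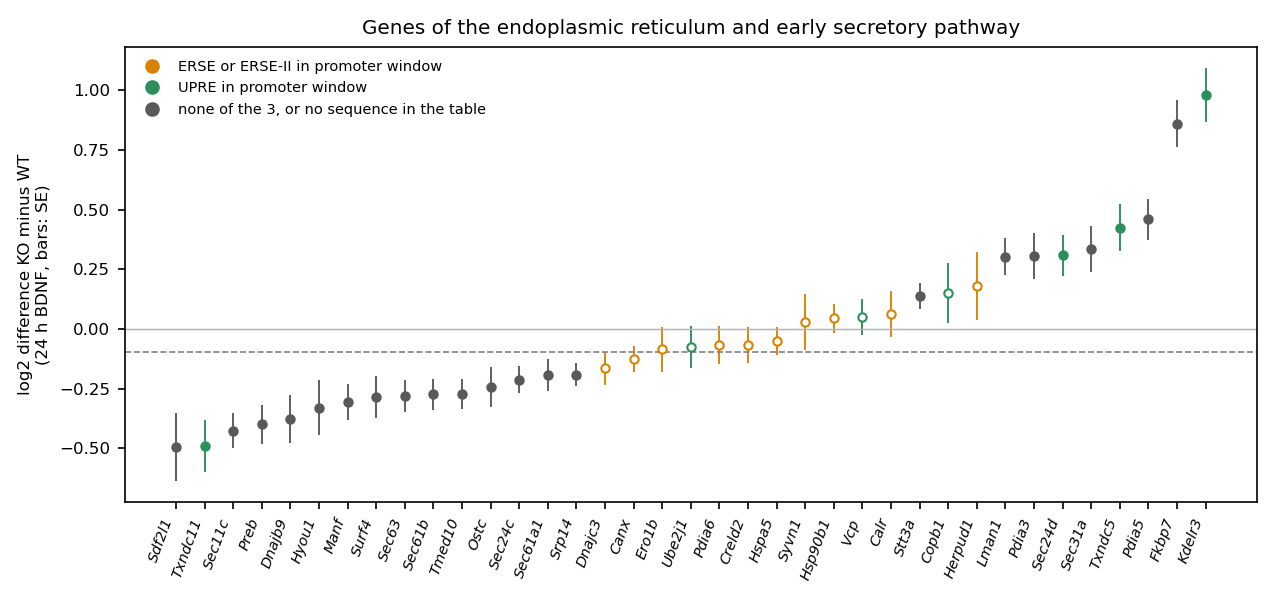
Log2 difference, Xbp1 knockout minus wild type after 24 h of BDNF (vertical axis, bars are SE), for genes of the ER and early secretory pathway that passed the limma threshold (filled) or carry 1 of the searched motifs. Orange marks an ERSE or ERSE-II and green a UPRE in the promoter window; all orange points are open and lie between -0.16 and 0.18, and the dashed line is the median over all genes.

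ATF4 and CHOP targets, which another branch of the response controls, had 5 rises and 1 fall among 28 tested, with a median difference of -0.07. The calls were 21.4% of this list, against 26% of all genes. Nupr1, a stress-induced nuclear protein, rose by 0.98 ± 0.19, Pck2, a mitochondrial carboxykinase, by 0.76 ± 0.15, and Sesn2 and Mthfd2 by 0.48 ± 0.10 and 0.48 ± 0.09. A second probe set of Sesn2 had a difference of 0.20 ± 0.19 and one of Mthfd2 0.13 ± 0.09, and neither passed. Ppp1r15a, the phosphatase subunit GADD34, fell by 0.41 ± 0.11. The median of this list, like those of the ER lists, turned positive with the signals as deposited, to 0.10.

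Few genes passed the test of whether the genotype difference depended on BDNF. Its SEs are larger than those of the 24 h difference, so a gene that did not pass may still depend on BDNF. For each gene the difference at 24 h was set against that of the dishes without BDNF, and 6 of 7195 genes (0.0834%) passed, while 442 had an unadjusted p below 0.05. In 1 of the 6 (0.0139% of all genes) the term was positive and in 5 (0.0695%) negative. Among the 6 were 3 members of the BDNF and ERK pathway. Bdnf mRNA averaged 1.82 ± 0.23 in knockout and 1.08 ± 0.16 in wild-type dishes at 24 h, and 0.04 ± 0.31 in knockout and 0.24 ± 0.06 in wild-type dishes without BDNF (SD, n = 5 each). At 24 h the dishes stood at 1.48, 1.74, 2.07, 1.80 and 1.99 in the knockout and at 1.13, 1.34, 0.93, 0.98 and 1.03 in the wild type, without overlap. The difference of differences was 0.93 ± 0.19 (limma, adjusted p = 0.041). It failed to pass in 11 of 23 alternative settings, among them the loss of knockout replicate 3, 4 or 5 or of wild-type replicate 1, 3, 4 or 5 (values between 0.87 and 0.94). A second Bdnf probe set gave 0.31 ± 0.19 and did not pass. The genotype difference of that probe set at 24 h was 0.15 ± 0.13 and did not pass either.

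Dusp6, the phosphatase that inactivates ERK and is induced by it, averaged 1.2 ± 0.06 in knockout and 1.75 ± 0.11 in wild-type dishes at 24 h, and 0.37 ± 0.16 in knockout and 0.25 ± 0.11 in wild-type dishes without BDNF (SD, n = 5 each). The knockout dishes at 24 h lay between 1.13 and 1.30 and the wild-type dishes between 1.63 and 1.91. The genotype difference was thus -0.55 with BDNF and 0.12 without it, and the difference of differences was -0.67 ± 0.11 (limma, adjusted p = 0.0057). It passed in 22 of 23 alternative settings, all except the signals as deposited.

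Spry2, a feedback inhibitor of receptor tyrosine kinases, averaged 1.90 ± 0.18 in knockout and 2.70 ± 0.19 in wild-type dishes at 24 h, and 1.51 ± 0.10 in knockout and 1.67 ± 0.08 in wild-type dishes without BDNF (SD, n = 5 each). Its difference was -0.80 with BDNF and -0.16 without, and the difference of differences was -0.64 ± 0.13 (limma, adjusted p = 0.019). That call was lost without replicate 4 of either genotype, with a value of -0.63 each, and with the mean of the Spry2 probe sets, with -0.27. At 48 h Dusp6 and Spry2 had differences of -0.43 and -0.67. Of 11 tested ERK feedback and target genes 5 fell and 1 rose at 24 h, with a median of -0.21. Dusp14 and Spred2, also inhibitors of this pathway, fell by 0.48 ± 0.13 and 0.46 ± 0.07 at 24 h and differed by -0.70 and -0.49 without BDNF. Ier3 rose by 0.39 ± 0.09.

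Homer2, a scaffold of metabotropic glutamate receptors, was also among the 6 genes. It averaged 2.50 ± 0.07 in knockout and 3.31 ± 0.12 in wild-type dishes at 24 h, and 2.44 ± 0.14 in knockout and 2.71 ± 0.09 in wild-type dishes without BDNF (SD, n = 5 each). Its genotype difference was -0.81 at 24 h, -0.27 without BDNF and -0.24 at 48 h. Homer2 passed against both other times, with -0.54 ± 0.10 against the dishes without BDNF and -0.57 ± 0.10 against 48 h (limma, adjusted p = 0.018 and 0.016). The calls were lost without wild-type replicate 3, with -0.50 and -0.53, and the first also without knockout replicate 4, with -0.52. Homer2 is named after its values were seen.

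For the last 2 of the 6 genes the genotype difference was larger without BDNF. Adamts5, a protease of proteoglycans, rose at all 3 times, by 0.90 at 24 h, 1.64 without BDNF and 1.27 at 48 h, and the difference of differences was -0.74 ± 0.14 (limma, adjusted p = 0.012). Igf1, the growth factor, had a difference of -0.04 at 24 h, against 0.54 without BDNF, and the difference of differences was -0.58 ± 0.10 (limma, adjusted p = 0.0057). The other 2 Igf1 probe sets were higher in knockout dishes at 24 h, by 0.47 ± 0.11 and 0.55 ± 0.12, and their differences of differences did not pass.

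**Figure D4:**
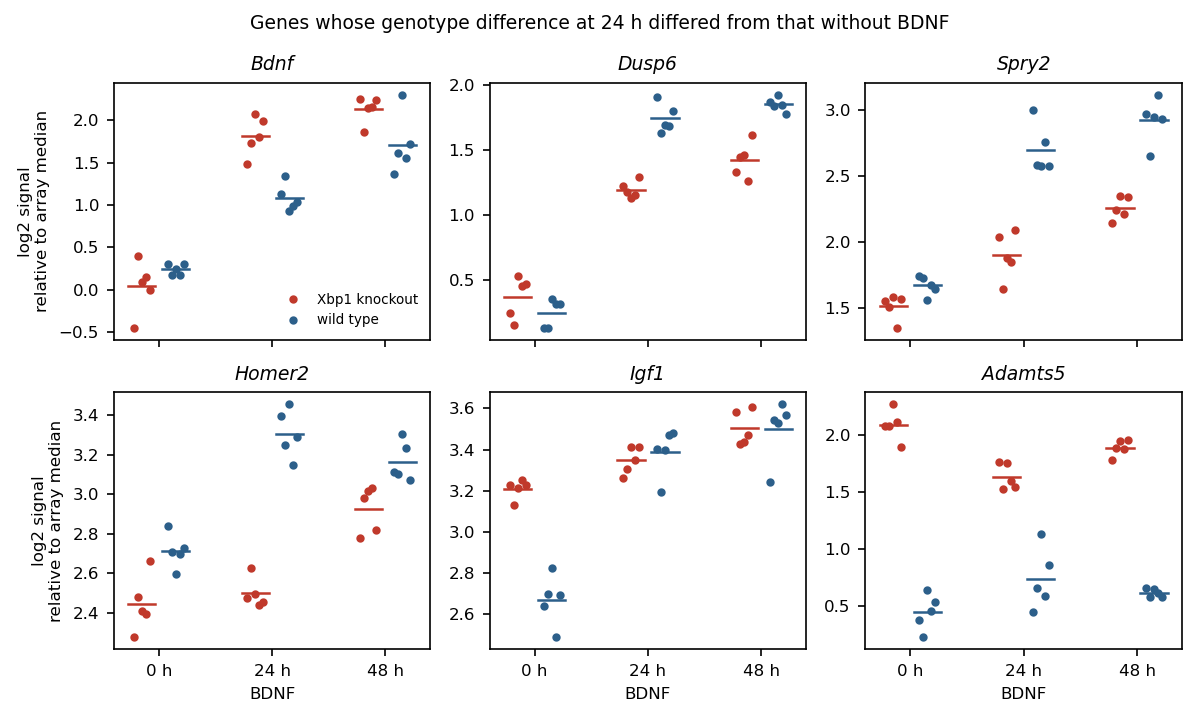
Log2 signal relative to the array median (vertical axes) of the 6 genes whose genotype difference at 24 h differed from that without BDNF, with 1 point per dish at 0, 24 and 48 h of BDNF; Xbp1 knockout is red and left, wild type blue and right, and short lines are means of 5 dishes. Each gene is read by its brightest probe set. At 24 h Bdnf is higher in the knockout, Dusp6, Spry2 and Homer2 are lower, Igf1 overlaps and Adamts5 is higher by less than at 0 h.

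The BDNF receptor and early response genes were read next. Ntrk2, which encodes TrkB, lay between 1.86 and 2.08 in knockout dishes and between 2.04 and 2.45 in wild-type dishes. It fell by 0.25 ± 0.08 (limma, adjusted p = 0.021), while a second, very dim probe set had a difference of 0.38 ± 0.24 and did not pass. The call of Ntrk2 was lost without knockout replicate 4 or wild-type replicate 2 or 3, with values between -0.22 and -0.20, and with quantile normalization, with -0.20. Immediate-early genes had 3 rises and 3 falls among 14 tested, 42.9% of them against 26% of all genes. Klf4 rose by 1.32 ± 0.10, while Nr4a1 fell by 0.52 ± 0.10, Ier5 by 0.45 ± 0.07 and Jun by 0.37 ± 0.07.

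Most of the interferon-stimulated genes tested rose. Of 15 members 10 rose and 0 fell, and the median difference was 0.59, which lay between 0.64 and 0.75 with the other scalings. Without the filter on mean signal 12 of 23 members rose and 0 fell, with a median of 0.56. Ifitm3, a membrane protein that restricts viruses, stood at 4.41, 4.15, 4.67, 4.31 and 4.31 in knockout dishes and at 3.32, 3.03, 3.37, 3.45 and 3.22 in wild-type dishes. The groups did not overlap, and it rose by 1.09 ± 0.09 (limma, adjusted p = 4.13e-11). Ifi35, Ifitm1 and Ifit1 rose by 1.16 ± 0.19, 1.08 ± 0.21 and 0.82 ± 0.13. The list median was 0.57 without BDNF and 0.74 at 48 h.

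Targets of p53 had 7 rises and 1 fall among 19 tested, with a median of 0.20. Pmaip1, the BH3-only protein NOXA, lay between 1.77 and 2.16 in knockout dishes and between 0.62 and 0.99 in wild-type dishes. It rose by 1.21 ± 0.11, and the p53 target genes Ccng1 and Phlda3 rose by 0.43 ± 0.07 and 0.49 ± 0.09. Casp9, an initiator caspase, fell by 0.30 ± 0.09. Microglial genes showed no common direction: C1qa and C1qb, subunits of complement C1q, rose by 0.89 ± 0.20 and 0.63 ± 0.18, and Cd68 fell by 0.65 ± 0.19. Without knockout replicate 1 the difference of Cd68 was -0.50 and did not pass. The summed microglial markers were 6.66 to 8.51 in knockout dishes and 5.84 to 7.43 in wild-type dishes, with Cx3cr1, Aif1 and C1qc below the array median on all 10. The part of these cells in the interferon and complement genes was not tested.

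The embryonic globin genes Hbb-bh1 and Hba-x rose by 1.19 ± 0.24 and 0.75 ± 0.24. The call of Hba-x was lost without knockout replicate 2 or 3 or wild-type replicate 4, with 0.66, 0.68 and 0.66. The summed erythroid markers overlapped, with 64.6 to 85.2 in knockout dishes and 58.4 to 84.8 in wild-type dishes. Hbb-y carried this sum, with means of 6.19 and 6.15, and its difference of 0.03 ± 0.19 did not pass. Gja1, the gap junction protein connexin 43, rose by 0.56 ± 0.09. It carried the astrocyte sum of 38.4 to 44.3 in knockout dishes and 25.3 to 31.2 in wild-type dishes, since Gfap, Aqp4, Aldh1l1 and S100b were below the array median on all 10 arrays. The oligodendrocyte sum was 3.55 to 4.38 in knockout dishes and 3.54 to 4.84 in wild-type dishes.

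Housekeeping groups had shares of rises and falls near the background of 8.37% and 17.7%, or counts that moved with the scaling. DNA replication and mitosis genes had 2 rises and 7 falls among 32 tested, and 2 rises and 0 falls with quantile normalization. The larger rise was that of the cyclin D1 gene Ccnd1 with 0.75 ± 0.11. Cholesterol and fatty acid synthesis genes had 7 falls among 21, led by Stard4, a sterol carrier, with -0.55 ± 0.09, and 3 with quantile normalization. Ribosomal protein genes had 1 rise and 9 falls among 43, and 4 rises and 1 fall with quantile normalization. Respiratory chain subunits had 1 rise and 15 falls among 70, and 1 rise and 0 falls with quantile normalization. Proteasome subunits had 6 falls among 34, and 2 with quantile normalization.

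The genotype difference at 24 h was largely shared with the other times, which use other dishes of the same pools. Without BDNF 1996 genes passed (27.7%), of which 653 rose (9.08%) and 1343 fell (18.7%), and 1230 genes passed in the same direction at both times, 65.6% of the genes called at 24 h and 61.6% of those called without BDNF. At 48 h 1724 genes passed (24%), of which 692 rose (9.62%) and 1032 fell (14.3%), and 1139 were shared in direction, 60.8% of the genes called at 24 h and 66.1% of those called at 48 h. Of the 1874 genes called at 24 h, 964 passed in the same direction at all 3 times (51.4%), and 466 passed at 24 h alone. None of these 466 passed the test of the difference against the dishes without BDNF. Over the 7195 genes the differences at 24 h correlated with those without BDNF with r = 0.86. Genes are not independent replicates, and all times share both pools.

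**Figure D5:**
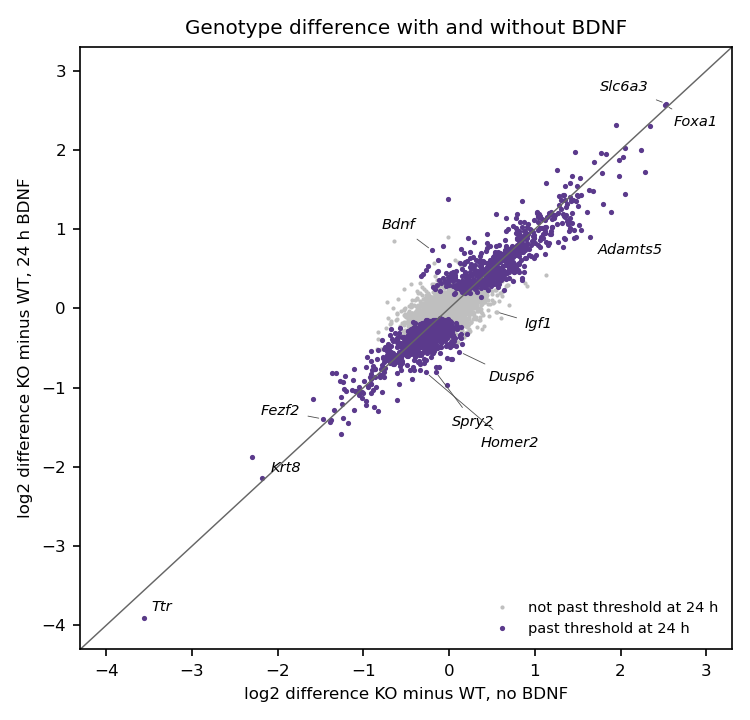
Log2 difference, Xbp1 knockout minus wild type, at 24 h of BDNF (vertical axis) against that without BDNF (horizontal axis) for 7195 genes; purple points passed the limma threshold at 24 h, and the line marks equal differences. Most genes lie near the line, Ttr is at the lower left and Slc6a3 and Foxa1 at the upper right, and Bdnf, Dusp6, Spry2, Homer2 and Adamts5 lie off it.

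Against 48 h, 5 genes passed (0.0695%), 2 with a positive term (0.0278%) and 3 with a negative one (0.0417%), and 435 had an unadjusted p below 0.05. Apart from Homer2 they were Id3, whose difference was smaller at 24 h than at 48 h by 0.82 ± 0.16, Thbd, the anticoagulant receptor thrombomodulin, with -0.91 ± 0.18, Ing3, a chromatin factor, with 0.94 ± 0.19, and Map1b, a neuronal microtubule protein, with 0.72 ± 0.13 (limma, adjusted p between 0.016 and 0.031). Map1b averaged 4.98 ± 0.14 in knockout and 4.43 ± 0.12 in wild-type dishes at 24 h (SD, n = 5 each). The other probe sets of Ing3 and Map1b had differences of -0.28, -0.24, -0.20 and -0.06 at 24 h and did not pass. The calls of Id3, Thbd and Ing3 were lost without most of the 10 arrays of the 24 h groups, 8, 7 and 8 of them, with values of -0.83 to -0.77, -0.94 to -0.81 and 0.90 to 0.96. That of Map1b was lost without wild-type replicate 4, with 0.70. Thbd, Ing3 and Map1b are named after their values were seen, as is the value of Id3 against 48 h.

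A targeted allele can carry flanking DNA of the strain in which it was made, so the genes around Xbp1 on chromosome 11 were also read. Of the 20 tested genes on either side, 4 rose and 6 fell, or 25%, against 24.4% of the 626 tested genes on that chromosome and between 20.8% and 34.0% over the autosomes. Aebp1, a collagen-binding protein, rose by 1.44 ± 0.17, Selenom by 0.80 ± 0.09, Pold2 by 0.53 ± 0.08 and Nefh by 0.52 ± 0.17. Without replicate 3 of either genotype the difference of Nefh was 0.46 or 0.43 and did not pass. Nf2, the tumour suppressor merlin, fell by 0.78 ± 0.07, with knockout dishes between 1.34 and 1.52 and wild-type dishes between 2.16 and 2.29. Ccm2, Fignl1 and Mtfp1 fell by 0.44 ± 0.06, 0.44 ± 0.13 and 0.34 ± 0.10, and without wild-type replicate 2 the difference of Fignl1 was -0.33 and did not pass. Ccdc117 and Nipsnap1 fell by 0.53 ± 0.15 and 0.39 ± 0.07, but another probe set of each rose, by 0.67 ± 0.20 and 0.64 ± 0.07.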

How the data were processed

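The labels describe RNA of cultured dishes labelled by a two-cycle protocol and hybridized to Affymetrix arrays. Per the submitters' processing notes, the authors computed the deposited signal intensities with MAS5. They are linear array intensity values of 22690 probe sets on 30 arrays, not yet divided by the array median. Aligners and genome builds do not apply to arrays.

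Each array was divided by its median, floored at 0.1 and converted to log2. Symbols came from the platform annotation (20393 probe sets with 1 gene, 691 with several, 1606 with none), and 0 were changed by the RefSeq table of GRCm38.p6, which gave chromosomes. The brightest probe set stood for each of 12394 genes, of which the upper 60% by mean signal were kept (7436). Leaving out 241 genes on X and Y left 7195. A level compares groups within a gene, not genes with each other.

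The 30 arrays entered a single model of 6 group means (limma 3.58.1, R 4.3.3) (empirical Bayes with an intensity trend, two-sided tests, Benjamini-Hochberg adjustment over all genes, threshold 0.05). The 24 h difference was also tested against those at the other times. On simulated data for this comparison over 7195 genes, 40% of genes changed by 1.25-fold, 86% at 1.5-fold and 100% at 2-fold were recovered, with 10 false calls. Only 50 genes were changed at each fold there, a smaller share than the 26% called in the data. These rates therefore need not hold for the data. Arrays have no read depth, and the 5 dishes per group limit the precision.

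Named genes were Xbp1, the 12 largest rises and 12 largest falls without overlap, up to 4 members per list and direction, all tested GABA synthesis and peptide genes, the 4 largest in each direction of the difference against dishes without BDNF, and called genes among the 20 tested on either side of Xbp1. The members, the 37 lists and the tests were chosen with earlier results of these data known. Nothing in the sources used here says whether arrays were processed in batches. Alternatives covered scaling, floor, filter, probe set choice, arrays in the fit, block, trend, weights, thresholds, X and Y genes, the Gapdh ratio as covariate and leaving out each array.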

Additional observations from a re-analysis of the deposited data

Results flagged for a closer look

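Among the named genes, 1 dish stood apart from the other 4 of its group by Dixon's ratio (critical value 0.71) in 24 of 336 groups of dishes, where chance alone gives about 1 in 20. In knockout replicate 1 the lone low values were 1.30 for Fbln2 (others 1.55 to 1.64), 1.63 for Herpud1 (2.26 to 2.35), 4.74 for Pdia6 (5.13 to 5.21), 2.71 for Pnoc (3.00 to 3.10), 2.50 for Pold2 (2.85 to 2.94), 2.77 for Serpinf1 (3.02 to 3.09) and 5.02 for Vcp (5.27 to 5.33). Knockout replicate 2 was low at 3.76 for Ccm2 (3.88 to 3.93) and 1.99 for Mmd2 (2.22 to 2.30). Knockout replicate 3 was low at 1.33 for Phlda3 (1.59 to 1.67) and high at 0.36 for Th (0.11 to 0.18). Knockout replicate 4 was low at 2.68 for Dnajb9 (2.97 to 3.07) and high at 4.62 for Reln (4.36 to 4.42), and knockout replicate 5 was low at 0.85 for Ing3 (1.37 to 1.49).

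In wild-type dishes, replicate 1 was high at 2.19 for C1ql3 (1.62 to 1.77) and 5.93 for Gad1 (5.76 to 5.79). Replicate 2 was high at 2.50 for Eomes (2.12 to 2.21) and low at 3.19 for Igf1 (3.40 to 3.48), 4.86 for Reln (5.08 to 5.11) and 4.54 for Sst (4.82 to 4.92). Replicate 3 was low at -1.51 for C1qa (-0.63 to -0.29), replicate 4 was high at 2.42 for Sec31a (1.78 to 1.96), and replicate 5 was low at -1.44 for Irx3 (-0.42 to -0.13) and -2.11 for Slc6a3 (-1.65 to -1.54).

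The genotype difference at 24 h differed from that without BDNF by 0.93 for Bdnf, -0.67 for Dusp6, -0.64 for Spry2, -0.54 for Homer2, -0.58 for Igf1 and -0.74 for Adamts5. It differed from that at 48 h by -0.57 for Homer2, -0.82 for Id3, 0.94 for Ing3, 0.72 for Map1b and -0.91 for Thbd. These are the interaction terms of the limma fit that passed after Benjamini-Hochberg adjustment.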

How the results depend on the processing

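The 1874 calls at 24 h became 842 with the signals as deposited, 1120 at an adjusted p below 0.01 and 420 with a 1.5-fold minimum, and without single arrays 1560 to 1859. The 602 rises became 313 in the upper 40% of genes and 288 with the fold minimum, and 539 to 602 without single arrays. The 1272 falls became 692 with quantile normalization, 811 with the 75th percentile, 139 as deposited, 642 at the stricter p and 132 with the fold minimum, and 958 to 1279 without single arrays. The 6 genes of the difference against dishes without BDNF became 12 with quantile normalization, 13 with the 75th percentile, 0 as deposited, 3 in the upper 40% and with the mean of probe sets, 10 without the trend, 15 with array weights and 2 at the stricter p. They were 3 to 8 without single arrays, with the lowest count without knockout replicate 4. Of 188 named genes that passed, 86 kept their call in all alternatives. The median of all genes moved from -0.09 to 0.07 as deposited, which the scaling sets by construction, and the other causes were not tested.

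With replicate number as a block, 2048 genes passed and 7 for the difference against dishes without BDNF. The deviations of same-numbered dishes from their group means correlated with 0.26, 0.17, 0.11, 0.09 and -0.09. Of the 5 knockout dishes, 3 correlated best with their own number. These values do not settle whether the numbers pair the dishes. The labels do not say that a number marks a shared culture or day, so the main fit did not use the numbers.

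Some small differences changed sign. With the mean of probe sets they were 0.0716 for Ccdc117, 0.327 for Igf1, 0.127 for Nipsnap1, 0.0662 for Ntrk2 and 0.0028 for Hspa5. As deposited they were 0.0766 for Cck, 0.0735 for Gad2, 0.112 for Hspa5, 0.122 for Igf1, 0.0952 for Pdia6, 0.0381 for Pnoc, 0.0750 for Tac1 and 0.0888 for Ube2j1. Quantile normalization gave 0.0572 for Hspa5, 0.0414 for Igf1, 0.0181 for Pdia6, 0.000157 for Tac1 and 0.0108 for Ube2j1, and the 75th percentile 0.0095 for Igf1. Without single arrays Tac1 lay between -0.241 and 0.0166 (above 0 without knockout replicate 1 or 2 or wild-type replicate 1), Pdia6 between -0.0991 and 0.0185 (above 0 without knockout replicate 1) and Vcp between -0.0113 and 0.107 (below 0 without wild-type replicate 1). Fits to the 10 arrays alone give no difference between times.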
